A study of Homo sapiens with 10 samples.

Results

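The ATP-binding cassette (ABC) transporter genes were compared across dye-sorted and unsorted gastric cancer cells. The members were the 41 genes with a symbol of ABCA to ABCG and a number that had at least 1 array probe set annotated with that symbol alone. They are 41 of 19775 genes, and 92 of 41097 probe sets with a single symbol, at 1 to 5 probe sets per gene. Pseudogene probe sets (7) and probe sets shared by several symbols (2) were left out. For summaries each gene was represented by its probe set of highest mean intensity.

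RNA came from AGS and MKN 45, established human gastric carcinoma lines, and was hybridised to 10 one-colour arrays. Side population cells stay dim after staining with the DNA dye Hoechst and were separated from the dye-retaining non-side population by fluorescence-activated sorting. Replicates lettered a to d were deposited for each sorted population (4 and 4 arrays), and replicates a and b for unsorted cells (2 arrays). The titles give both sorted populations of a letter the same replicate group name, and do not say what it marks. The cells carried no stated genetic change and received no stated treatment beyond the dye used for sorting. The origin label gives both lines for all arrays; the source label gives AGS for 8 of them and no line for side population replicates a and b, so the line behind an array is not settled. The labels do not tell whether replicates were separate cultures, so p-values measure only how far these samples spread, and that spread may be technical.

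ABC proteins use the energy of ATP, bound at a conserved nucleotide-binding domain, to move substrates across membranes. Members of the B, C and G classes expel drugs, dyes and conjugates from the cell, A-class members mostly handle lipids, D-class members serve peroxisomes and lysosomes, and the E and F classes lack membrane-spanning domains and act on ribosomes. The side population phenotype is defined by dye efflux, for which ABCG2 and ABCB1 are the transporters best known.

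On the arrays as a whole, median intensity lay between 58.7 and 85.4, and the deposited intensities had already been scaled to a common trimmed mean. The 3' to 5' ratio of the actin control, which rises with degraded RNA, was 3.34 on side population replicate a and 0.987 to 1.28 on the other 9 arrays. The 5' probe set for 18S ribosomal RNA read 274.6 and 828.3 on the unsorted arrays, 851.2 on side population replicate d and 563 on non-side population replicate c, against 22182.4 to 33704 on the other 6. Epithelial markers matched the labels, with 8 of 9 genes above background on all arrays and summed intensities of 110805.7 to 128857.7 on side population, 94869.2 to 138541.1 on non-side population and 123529.1 to 130537 in unsorted cells. Of 8 blood and endothelial markers measured, PTPRC, CD3E, VWF and CDH5 were at background on all arrays, CD14 exceeded it on 1, PECAM1 on 8, HBB on 9 and LYZ, at 6247.4 to 43612.3, on 10. Of 6 fibroblast markers COL1A2, COL3A1 and LUM were at background on all arrays, DCN exceeded it on 1, THY1 on 3 and COL1A1, at 1017.8 to 2010.4, on 10.

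Most of the transporters did not stand out from background on every array. As the background, the 95th percentile of 107 probe sets of 82 olfactory receptor genes was taken on each array, at 88.8 to 115.48. Of the 41 ABC genes, 18 lay above it on all 10 arrays, 7 on some and 16 on none. The last 16 read between 0.5 and 84 on every array, and all 35 of their probe sets stayed at background. The median of the olfactory receptor probe sets was 15.4 to 29.8, far under the percentile used. Weak transcription of genes under the percentile was not tested. A separate filter, used for the tests, kept the genes whose mean log2 value reached the median over all genes (an intensity of about 148.5). It kept 19 ABC genes of 9888 genes, namely the 18 and ABCB8.

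**Figure D1:**
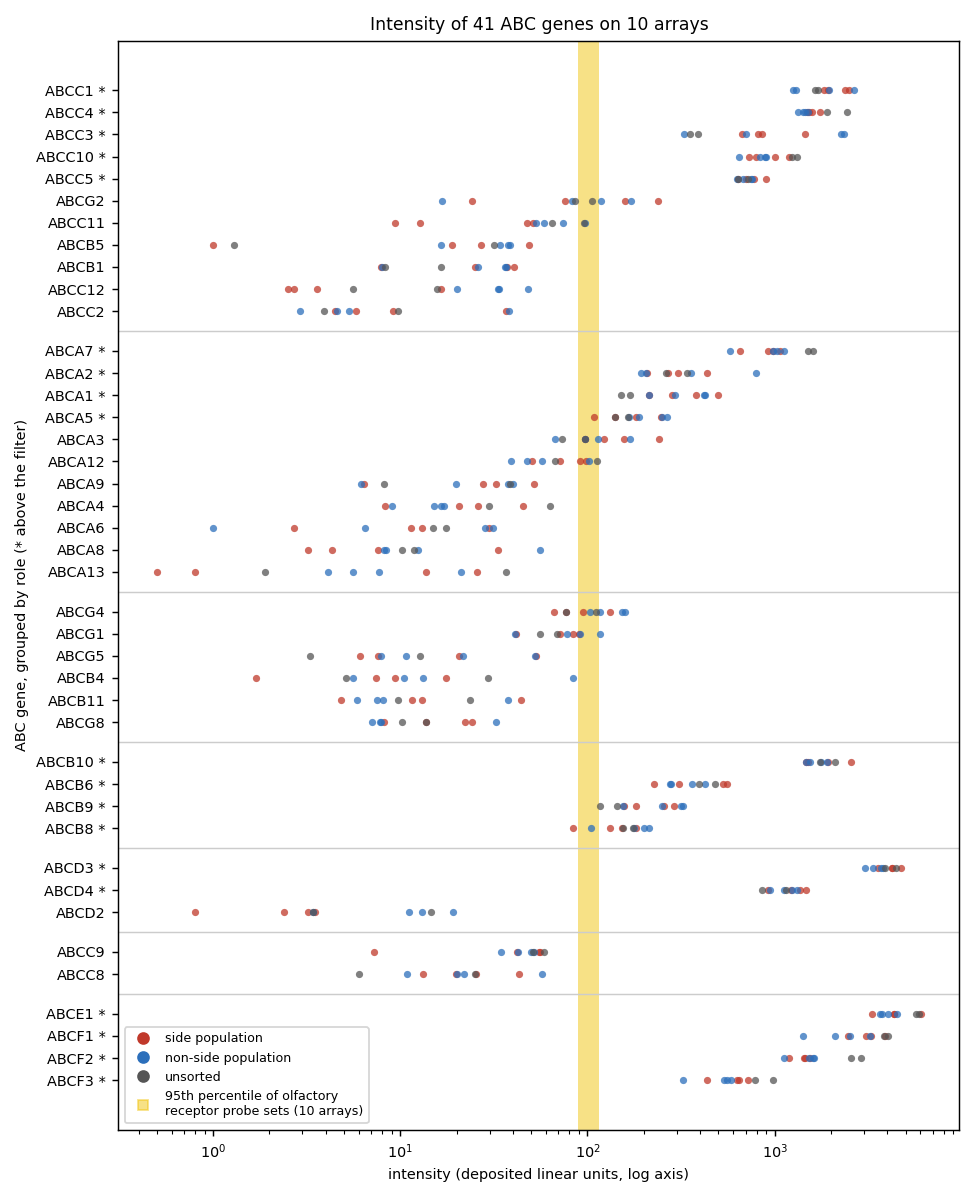
Intensity of each of the 41 ABC genes on each of the 10 arrays (x axis, deposited linear units on a log scale), grouped by role on the y axis, with 1 point per array coloured by population and an asterisk for the 19 genes above the filter. The shaded band spans the olfactory receptor 95th percentiles of the arrays, 88.8 to 115.48; 16 genes have every point at or left of their array's percentile and 18 have every point to its right.

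The dye and drug exporters divided sharply. Of 11 measured, 5 passed the filter, all of the C class: ABCC1 (MRP1), ABCC3, ABCC4, ABCC5 and ABCC10, which export conjugates, nucleotide analogues and drugs. The other 6 did not. ABCB1, the P-glycoprotein of multidrug resistance, ABCB5, ABCC2, an exporter of the bile canaliculus, and ABCC12 were at background on all 10 arrays, ABCC11 exceeded it on 1 array and ABCG2 on 5.

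ABCG2, the breast cancer resistance protein and the transporter most often tied to Hoechst efflux, had a single probe set. It read 76.2, 24.1, 239.2 and 157.9 in side population replicates a to d, 82.3, 16.7, 117.9 and 171.5 in non-side population replicates a to d, and 105.1 and 85.5 in unsorted cells. The 3 groups overlapped throughout. In each sorted population the arrays of letters a and b lay below those of letters c and d. In the fit without the filter ABCG2 differed by 0.29 ± 0.67 on the log2 scale between side and non-side population (SE, n = 4 and 4; 95% interval -1.15 to 1.74). That interval is wide enough to hold a log2 difference of 1 in either direction. The fit took no account of the letters, so the difference between letter pairs is part of its spread. Within letters a and b the ABCG2 difference was 0.15, and within letters c and d 0.43. Bulk arrays cannot tell fewer expressing cells from less RNA per cell, here or in any result that follows.

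Because ABCG2 is the transporter the sort is most often linked to, the 150 bases upstream of its start are shown (RefSeq, GRCh38.p14, minus strand, chr4:88158640-88158789; the start of most CpG among 5 in the table), and they hold none of the motifs searched (GC box, CCAAT box, TATA box, E-box, antioxidant response core and NRF1 site).
ABCG2: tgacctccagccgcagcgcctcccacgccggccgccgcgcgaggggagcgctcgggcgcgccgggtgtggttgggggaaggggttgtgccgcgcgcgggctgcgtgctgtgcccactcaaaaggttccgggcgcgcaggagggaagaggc

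ABCB1 read 37.1, 7.9, 25.2 and 40.7 in side population, 26.1, 36.7, 36.2 and 8 in the non-side population, and 16.6 and 8.3 in unsorted cells. On this probe set the populations overlapped, and the difference was 0.03 ± 0.50 (SE, n = 4 and 4; 95% interval -1.04 to 1.10). The other ABCB1 probe set, 209993_at, read 3.9, 5.1, 3.8 and 13 in side population, 24.7, 23.7, 14.4 and 17.3 in the non-side population, and 4.6 and 4.8 in unsorted cells. There all side population arrays lay below all non-side ones, but every reading was at background. ABCB5, a relative of P-glycoprotein, read 26.9, 18.9, 48.6 and 1 in side population, 37.8, 34, 16.5 and 38.6 in the non-side population, and 1.3 and 31.5 in unsorted cells. ABCC2 read 9.2, 36.7, 5.8 and 4.5 in side population, 37.9, 4.6, 5.3 and 2.9 in the non-side population, and 3.9 and 9.7 in unsorted cells. For both genes the groups overlapped at background level, where no order was read from the values.

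ABCC1, an exporter of glutathione conjugates and anthracyclines, read 2368.7, 1823.5, 1937.7 and 2479.8 in side population, 1246.3, 1296.6, 2644.7 and 1952.2 in the non-side population, and 1703.8 and 1634.2 in unsorted cells. All 4 side population arrays lay above both unsorted arrays, an order that 21.4% of all genes tested had, while the non-side population arrays spanned them. The difference between side and non-side population was 0.33 ± 0.25 (95% interval -0.21 to 0.86). On the other ABCC1 probe set, 202805_s_at, side population overlapped unsorted cells. It read 459.8, 499.4, 509.9 and 881 in side population, and 810 and 454.6 in unsorted cells.

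ABCC3, a basolateral exporter of glucuronides and bile salts, read 811.8, 668.6, 1458 and 859.7 in side population, 703.1, 326.6, 2261.8 and 2345.4 in the non-side population, and 390.3 and 351.5 in unsorted cells. Non-side population replicates c and d were the highest and replicate b the lowest of all. ABCC4, an exporter of cyclic nucleotides and nucleotide analogues, read 1579.2, 1522.3, 1490.7 and 1740.1 in side population, 1332.5, 1415.8, 1460.4 and 1511.3 in the non-side population, and 2435.4 and 1904.8 in unsorted cells. Both unsorted arrays lay above all 8 sorted ones. ABCC5, which exports nucleotides and amino acid conjugates, read 770.8, 894.6, 634.6 and 704.2 in side population, 679.5, 629.4, 749.5 and 759.8 in the non-side population, and 719.3 and 634.8 in unsorted cells. On this probe set the ABCC5 groups overlapped throughout. Another ABCC5 probe set, 226363_at, read 286.5 to 355.3 in side population, 321.5 to 458.1 in the non-side population, and 268.3 and 247.2 in unsorted cells. There all 8 sorted arrays lay above both unsorted ones, an order that 11% of all genes tested had, and it was not called.

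No ABC gene was called between side and non-side population cells, the comparison that asks whether the dye-excluding cells transcribe more of any pump. By limma 0 of 19 tested ABC genes were called at an adjusted p under 0.05, where 0% of all genes were called, and each had an adjusted p of at least 0.997. At an unadjusted p under 0.05 there were 0 ABC genes and 430 of all 9888, and the smallest adjusted p of any gene was 0.05001. The median log2 difference of the 19 was 0.09, against 0.05 over all genes tested, and 12 of 19 were positive, against 57.3% of all. For 0 of 19 did the populations fail to overlap, against 1.59% of all genes. The 95% intervals of the 19 all held 0, and together they reached from -1.29 to 1.03.

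**Figure D2:**
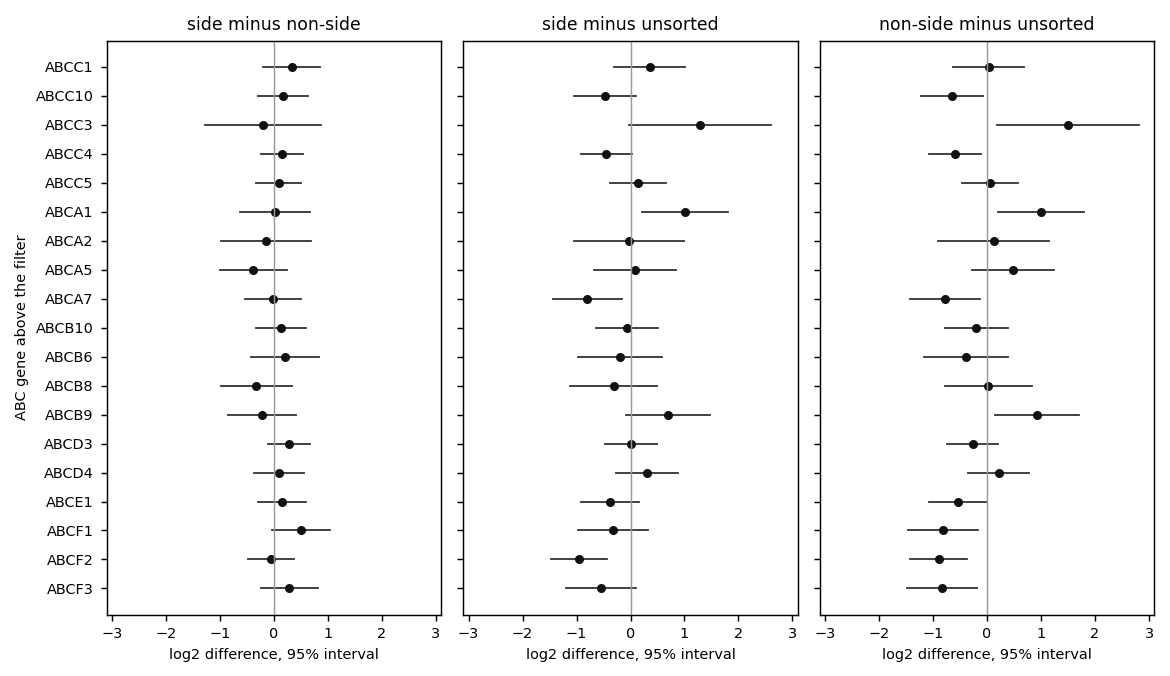
Log2 difference of the 19 ABC genes above the filter (y axis) in 3 comparisons (panels), with the 95% interval of the limma fit (n = 4 side population, 4 non-side population and 2 unsorted arrays). In the left panel all 19 intervals span 0; in the other panels ABCF2 lies at -0.96 and -0.90 and ABCA1 at 1.02 and 1.00 with intervals clear of 0, and 0 genes passed the adjusted threshold.

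The 4 smallest p-values between the sorted populations belonged to ABCF1, ABCD3, ABCA5 and ABCC1. ABCF1, a ribosome-associated factor that promotes translation initiation, read 3903.1, 3263, 2470.3 and 3080.3 in side population, 2098.3, 1418.5, 2538.1 and 3223.7 in the non-side population, and 4047.1 and 3816.5 in unsorted cells. The sorted populations overlapped through replicates c and d (0.50 ± 0.25). ABCD3, which imports branched fatty acids into peroxisomes, read 4722.2, 4235.6, 4251.3 and 3578.3 in side population, 3052.7, 3341.6, 3683.8 and 3774.7 in the non-side population, and 3867.7 and 4457.7 in unsorted cells. Side population replicate d fell within the non-side population range, and the difference was 0.27 ± 0.18. ABCA5, an A-class lipid transporter, read 247.4, 108.6, 139.7 and 182.2 in side population, 165.9, 250, 265 and 187.7 in the non-side population, and 140.4 and 164.6 in unsorted cells, with overlap between the sorted populations and a difference of -0.38 ± 0.29.

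A pair of background-level genes, named after their values were seen, had side population arrays wholly below the non-side population ones. ABCC12 read 2.7, 2.5, 16.5 and 3.6 in side population, 33.3, 33.8, 20.2 and 48.1 in the non-side population, and 5.6 and 15.7 in unsorted cells. ABCC11 read 9.4, 12.7, 47.3 and 51 in side population, 74.1, 53, 97.3 and 58.7 in the non-side population, and 64.5 and 95.3 in unsorted cells. These were 2 of 41 genes in the fit without the filter, against 2.28% of all 19775, and by limma neither was called (adjusted p = 0.862 and 0.976). Their differences were -1.77 and -1.29, and nearly all of these readings lie where a probe set was not told from background. Raising every value under its array's olfactory receptor percentile to it gave -0.13 and -0.15. For ABCC12 that replaces every reading, so -0.13 is the value of any gene at background on all arrays. For ABCC11 it replaces all readings but 1. These raised values therefore reflect the percentiles of the arrays and say little about either gene.

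Within the sorted arrays, letters a and b and letters c and d gave different pictures, a division picked after results of these data were seen. The letter pairs were fitted as separate groups within each sorted population, with a spread shared over all 10 arrays. Within letters a and b, ABCF1 and ABCB6, a haem and porphyrin transporter of mitochondria and lysosomes, rose in side population cells by 1.05 ± 0.24 and 0.95 ± 0.27 (SE, n = 2 and 2; limma, adjusted p = 0.0273 and 0.044). These were 2 of 19 ABC genes (10.5%), near the 9.2% of all genes called there. In letters a and b, ABCB6 read 555.7 and 530.4 on the side population arrays against 279.9 and 275 on the non-side ones. In letters c and d it read 227 and 308.9 against 422.6 and 361.2, with 481.4 and 392.1 in unsorted cells. Side population arrays were thus the higher ones in letters a and b and the lower ones in letters c and d.

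Within letters c and d limma called 0 ABC genes and 0% of all genes; at an unadjusted p under 0.05 there were 1 ABC gene and 435 of all. The difference between the letter pairs was tested and did not pass for ABCB6 (1.50 ± 0.38, adjusted p = 0.0993), ABCF1 (1.10 ± 0.34, adjusted p = 0.111) or ABCC3 (1.65 ± 0.48, adjusted p = 0.102), by limma over 9888 genes of which 0% were called. At an unadjusted p under 0.05 that test counted 6 ABC genes and 2652 of all. The calls of ABCF1 and ABCB6 were both lost when side population replicate a, whose actin ratio was 3.34, was left out (0.92 ± 0.30 and 0.92 ± 0.34, adjusted p = 0.151 and 0.174, with 1 gene of all called). The same held when non-side population replicate b was left out (0.76 ± 0.27 and 0.94 ± 0.34, adjusted p = 0.143 and 0.154, with 0 called). The call of ABCB6 was lost as well without side population replicate b (0.99 ± 0.34, adjusted p = 0.086) and without non-side population replicate a (0.97 ± 0.34, adjusted p = 0.0872). Side population replicate b, with a ratio of 1.28, read above both non-side population arrays for ABCF1 and ABCB6. Whether the actin ratio had a part in either call was not tested. In letters a and b only the side population arrays lack a cell line in the source label, so population and label cannot be told apart there.

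**Figure D3:**
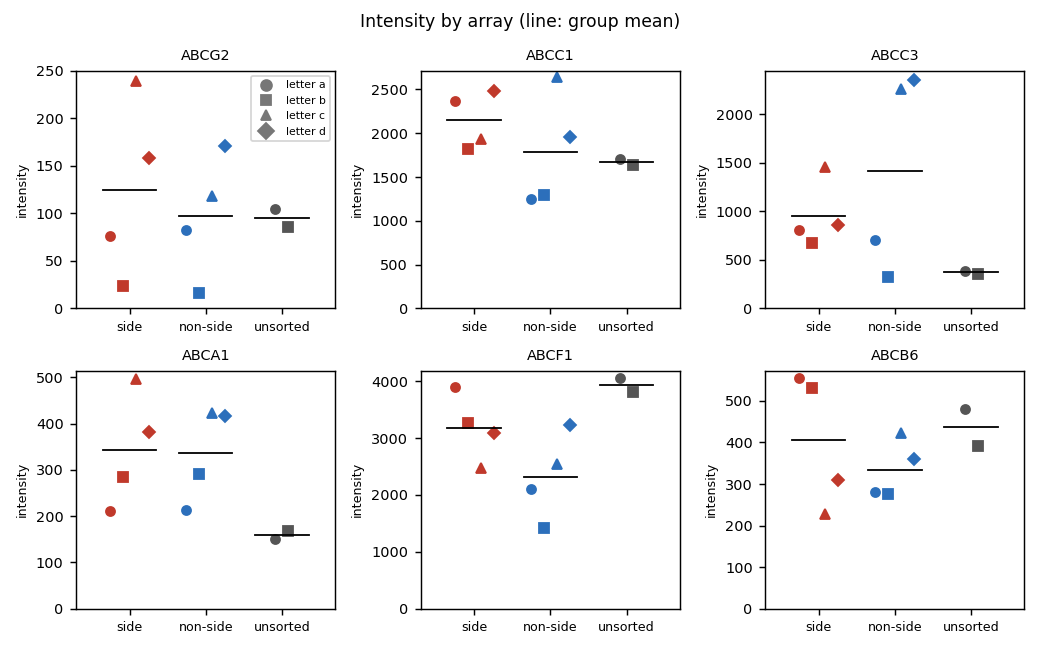
Intensity (y axis, deposited linear units) of 6 ABC genes by population (x axis), with 1 point per array, its shape giving the replicate letter, and a line at the group mean. ABCG2, ABCC3 and ABCA1 have the sorted arrays of letters c and d above those of letters a and b, and ABCF1 and ABCB6 have side population points above the non-side ones within letters a and b.

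Some transporters had separate ranges in the letter pairs, given here as a description with no test. Among sorted arrays, ABCG2 ranged from 16.7 to 82.3 in letters a and b and from 117.9 to 239.2 in letters c and d. ABCC3 ranged from 326.6 to 811.8 and from 859.7 to 2345.4, ABCA1 from 211.9 to 292.1 and from 382.2 to 496.3, and ABCA2, an endosomal lipid transporter, from 192.5 to 268.3 and from 304.1 to 792.8. Of the 19 tested, 3 (ABCA1, ABCA2 and ABCC3) did not overlap between the letter pairs, a share of 15.8% that is near the 14.4% of all genes. ABCG2 and ABCC9 lie below the filter and did so too, ABCC9 in the opposite direction but at background on all arrays. The share of all genes below the filter that did so was not counted.

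Against unsorted cells, several members lay outside the unsorted range in both sorted populations, and those comparisons share the 2 unsorted arrays. Both unsorted arrays also had low 18S signal, and its part in these results was not tested. By limma side population differed from unsorted cells at the threshold for 0 of 19 ABC genes, against 2.45% of all genes, and non-side population for 0 of 19, against 3.66%. At an unadjusted p under 0.05 there were 3 of 19 ABC genes and 1704 of all 9888 for side population. For non-side population there were 9 of 19 ABC genes and 1934 of all 9888, a higher share among ABC genes. Side population and unsorted arrays did not overlap for 9 of 19, against 36.8% of all genes, and non-side population and unsorted arrays for 11 of 19, against 31.9%. The median log2 differences of the 19 were -0.07 and -0.20, against 0.04 and -0.01 over all genes.

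By the probe set of highest intensity, all 8 sorted arrays lay below both unsorted ones for ABCA7, ABCC4, ABCC10, ABCF2 and ABCF3 (5 of 19, against 9.54% of all genes). They lay above both for ABCA1 and ABCB9, a lysosomal peptide transporter (2 of 19, against 11% of all genes). ABCB9 passed the filter only through the sorted arrays, where it is high.

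The ribosome-acting E and F classes read lower on average in sorted than in unsorted cells, without a call. All 4 passed the filter and all 4 had negative differences from unsorted cells in both comparisons, with a median log2 difference of -0.47 for side population and -0.83 for non-side population arrays. None of the 4 passed the test. For 9 translation partners of these proteins the medians were 0.19 and 0.20, with 0 called.

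Their upstream sequences are shown because all 4 genes had negative, though uncalled, differences from unsorted cells (RefSeq, GRCh38.p14, 150 bases before the start; ABCE1 plus strand, chr4:145098161-145098310; ABCF1 plus strand, chr6:30571292-30571441; ABCF2 minus strand, chr7:151227206-151227355; ABCF3 plus strand, chr3:184186049-184186198). Capitals mark any of 6 motifs searched on both strands. The GC box was searched as GGGCGG. The CCAAT box was searched by those letters. The TATA box was searched as TATAAA. The E-box was searched as CACGTG. The core of the antioxidant response element was searched as TGACNNNGC. The NRF1 site was searched by its usual consensus.
ABCE1: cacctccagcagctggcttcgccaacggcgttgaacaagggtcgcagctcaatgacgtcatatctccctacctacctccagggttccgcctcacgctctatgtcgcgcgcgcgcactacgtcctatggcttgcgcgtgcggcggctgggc
ABCF1: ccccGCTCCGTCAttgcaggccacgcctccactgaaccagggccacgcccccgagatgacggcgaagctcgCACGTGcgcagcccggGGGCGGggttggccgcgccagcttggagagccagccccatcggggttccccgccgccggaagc
ABCF2: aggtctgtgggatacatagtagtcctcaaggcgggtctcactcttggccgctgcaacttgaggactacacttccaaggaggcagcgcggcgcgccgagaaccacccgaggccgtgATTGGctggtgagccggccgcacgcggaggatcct
ABCF3: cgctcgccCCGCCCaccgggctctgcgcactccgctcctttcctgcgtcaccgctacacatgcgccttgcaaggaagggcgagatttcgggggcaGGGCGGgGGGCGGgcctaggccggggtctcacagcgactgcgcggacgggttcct

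The 4 share no searched motif in this stretch: ABCE1 holds none, ABCF1 holds 1 GC box, 1 E-box and 1 antioxidant core, ABCF2 holds 1 CCAAT box and ABCF3 holds 3 GC boxes. Over 250 upstream bases, RefSeq entries matched 17 of the 19 ABC genes above the filter, all but ABCC1 and ABCC3. Each gene in every set was represented by its start of most CpG, which raises the CpG counts. The median of the matched ABC genes was 26 CpG dinucleotides (13 to 54), against 23 for the 8236 matched genes above the filter and 12 for all 27305 promoters, 1 per gene. The GC box stood in 15 of 17 (88.2%), against 73.7% of genes above the filter and 44.9% of all promoters, and CCAAT in 23.5%, against 35% and 32.4%. TATAAA stood in 11.8%, against 4.06% and 10.7%, CACGTG in 23.5%, against 9.48% and 6.63%, TGACNNNGC in 23.5%, against 12.4% and 11.1%, and the NRF1 site in 11.8%, against 3.05% and 1.44%. Of the 22 ABC genes below the filter only 72.7% matched, so that set was not described. These are letter matches only and say nothing about factors bound.

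ABCE1, the ribosome-recycling ATPase, read 4323.2, 6062.4, 3325.9 and 4335.1 in side population, 4530.4, 3753.6, 4023.7 and 3670.3 in the non-side population, and 5654.9 and 5875.5 in unsorted cells. Side population replicate b was the highest of the 10 arrays, so side population overlapped unsorted cells and non-side population did not. ABCF3, a cytosolic ATPase linked to antiviral defence, read 716.8, 647.3, 434.9 and 632.6 in side population, 559.1, 325.4, 584.4 and 535.2 in the non-side population, and 976.4 and 783.1 in unsorted cells. Its difference between non-side population and unsorted cells was -0.83 ± 0.30 (SE, n = 4 and 2; limma, adjusted p = 0.144). ABCF1, with values above, was at -0.82 ± 0.31 in the same comparison (limma, adjusted p = 0.153).

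ABCF2, a cytosolic ATPase of the F class, came nearest to a call. Its probe set of highest intensity read 1431.7, 1449, 1187.1 and 1548.7 in side population, 1533.6, 1124.3, 1619.7 and 1607.6 in the non-side population, and 2905.9 and 2546.3 in unsorted cells. Every sorted array lay below both unsorted ones. The 2 sorted arrays with low 18S signal read 1548.7 and 1619.7, each the highest of its population. The part of the 18S signal was not tested. The differences from unsorted cells were -0.96 ± 0.24 for side population (limma, adjusted p = 0.0533) and -0.90 ± 0.24 for non-side population (limma, adjusted p = 0.0551; SE, n = 4 and 2).

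The 5 ABCF2 probe sets did not tell 1 story. 207622_s_at read 718.5 to 1377.1 in side population, 589.1 to 1495.3 in the non-side population, and 2239.7 and 1980.1 in unsorted cells, below the unsorted arrays as above. 207623_at ran the other way. It read 265.7, 138.3, 154.8 and 152.8 in side population, 207.3, 154.4, 378.8 and 347.1 in the non-side population, and 20 and 7.8 in unsorted cells, the last at background. In a fit of every probe set on its own its differences from unsorted cells were 3.22 ± 0.44 and 3.78 ± 0.44 (limma, adjusted p = 0.0057 and 0.00208). It reached the filter of that fit only through the sorted arrays, where it is high, so these are given as a description. With background values raised to the olfactory receptor percentile they shrank to 0.78 and 1.33. 209246_at and 214232_at differed from unsorted cells by -0.18 ± 0.30 and 0.37 ± 0.30 for side population, and by -0.65 ± 0.30 and 0.06 ± 0.30 for non-side population, without a call. RefSeq holds a read-through gene, ABCF2-H2BK1, over the same locus, and which transcripts each probe set binds was not tested.

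**Figure D4:**
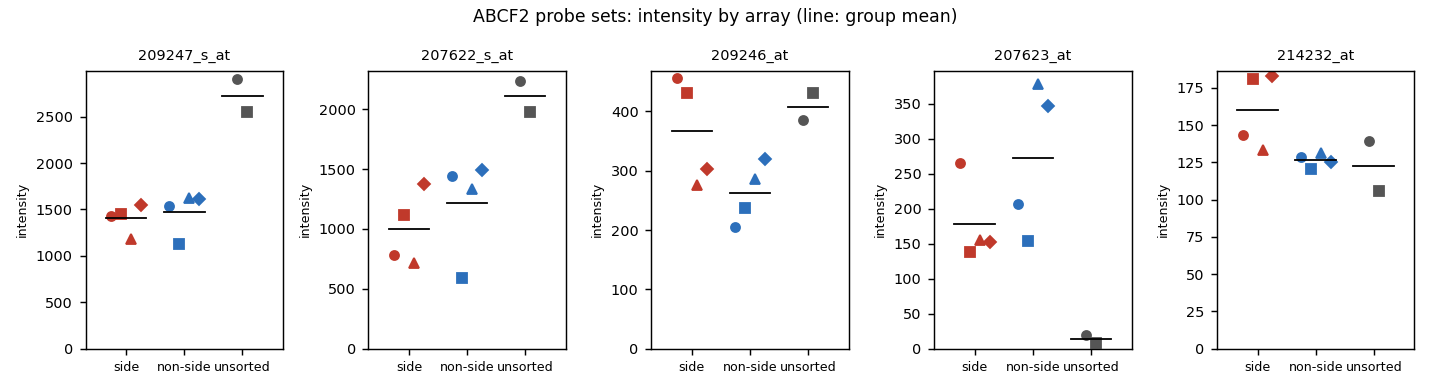
Intensity (y axis, deposited linear units, 1 scale per panel) of the 5 ABCF2 probe sets (panels) by population (x axis), with 1 point per array, its shape giving the replicate letter, and a line at the group mean. In 209247_s_at and 207622_s_at both unsorted points lie above all 8 sorted points, and in 207623_at, at 20 and 7.8, they lie below all 8.

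Across the family, that fit held 38 ABC probe sets of 20549. It called 0 between the sorted populations, 1 for side population against unsorted cells, where 2.1% of all passed, and 3 for non-side population, where 3.58% passed. Besides 207623_at these were 203504_s_at of ABCA1 (1.22 ± 0.28, limma, adjusted p = 0.0356) and 230682_x_at of ABCC3 (3.22 ± 0.65, limma, adjusted p = 0.0206), both with higher values in non-side population cells. The ABCC3 probe set read 44.2 and 10 in unsorted cells, at background, and its difference was 1.35 with background values raised. It too passed the filter only through the sorted arrays, so of these probe sets the call of 203504_s_at alone did not depend on that. Of 10 ABC genes with several probe sets in the fit, 7 had probe sets of opposite sign between side and non-side population, 4 between side population and unsorted cells and 2 between non-side population and unsorted cells. 1554878_a_at of ABCD3 read 287 to 807.5 in side population, 411 to 809.9 in the non-side population, and 1279.9 and 1202 in unsorted cells, where the ABCD3 probe set of highest intensity overlapped between side population and unsorted cells. Its differences were -1.32 ± 0.40 and -1.08 ± 0.40, without a call.

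The A class, whose members load lipids onto carriers or into vesicles, had 4 of 11 measured genes above the filter: ABCA1, ABCA2, ABCA5 and ABCA7. ABCA1, the exporter of cholesterol to apolipoprotein A-I, read 211.9, 284.5, 496.3 and 382.2 in side population, 212.7, 292.1, 423 and 417.3 in the non-side population, and 150.2 and 167.9 in unsorted cells. Each of the 8 sorted arrays lay above both unsorted ones, and the sorted populations overlapped. The differences from unsorted cells were 1.02 ± 0.37 and 1.00 ± 0.37 (limma, adjusted p = 0.163 and 0.152), and between the sorted populations 0.02 ± 0.30. The second probe set in the fit, 203504_s_at, read 191.2 to 278.5 in side population, 243.4 to 349.3 in the non-side population, and 116.9 and 127.7 in unsorted cells, so it had the same order.

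The upstream sequence of ABCA1 is shown because both of these probe sets were higher in all sorted than in unsorted arrays (RefSeq, GRCh38.p14, minus strand, chr9:104928156-104928305). Its capitals mark, from the 5′ end, an E-box, a GC box and a TATA box.
ABCA1: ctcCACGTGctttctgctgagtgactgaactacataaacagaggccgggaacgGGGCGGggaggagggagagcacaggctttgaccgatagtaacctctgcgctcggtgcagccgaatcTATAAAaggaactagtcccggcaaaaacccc

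ABCA7, a phospholipid exporter, read 1068.5, 648.9, 918.5 and 976.7 in side population, 1120.6, 1027.7, 983.5 and 580.8 in the non-side population, and 1606.7 and 1497.9 in unsorted cells. It went opposite to ABCA1, with differences from unsorted cells of -0.80 ± 0.30 and -0.78 ± 0.30 (limma, adjusted p = 0.174 and 0.168). ABCA3, the surfactant lipid transporter, lies below the filter and exceeded background on 7 arrays. It read 239.8, 156.8, 97.6 and 122.6 in side population, 97.2, 114.1, 167.7 and 67 in the non-side population, and 97 and 72.8 in unsorted cells, with a difference between the overlapping sorted populations of 0.44 ± 0.37. ABCA12, the keratinocyte lipid transporter, exceeded background on 4 arrays, and ABCA4, ABCA6, ABCA8, ABCA9 and ABCA13 on none.

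Of the exporters compared with unsorted cells, ABCC3 was at 1.28 ± 0.62 for side population (limma, adjusted p = 0.303) and 1.49 ± 0.62 for non-side population (limma, adjusted p = 0.2). ABCC4 was at -0.45 ± 0.22 and -0.59 ± 0.22 (limma, adjusted p = 0.329 and 0.162). Its probe set 1555039_a_at read 133.1 to 380.1 in side population, 93.3 to 429.4 in the non-side population, and 673.9 and 715 in unsorted cells, so it too was highest in unsorted cells. ABCC10 was at -0.48 ± 0.27 and -0.65 ± 0.27 (limma, adjusted p = 0.382 and 0.199). On its probe set 215873_x_at the sorted and unsorted arrays overlapped. There non-side population replicate c read 586.1, and unsorted cells read 524 and 558.1. ABCC1 was at 0.35 ± 0.30 and 0.03 ± 0.30, and ABCC5 at 0.14 ± 0.24 and 0.06 ± 0.24.

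The sterol and bile lipid transporters of the B and G classes had 0 of 6 genes above the filter. ABCG1, which passes sterols to lipoproteins, read 41.3, 90.4, 83.6 and 71.2 in side population, 116.5, 77.6, 91.6 and 40.9 in the non-side population, and 68.5 and 55.8 in unsorted cells, with 1 array above background and all groups overlapping. ABCG4, its close relative, exceeded background on 6 arrays. ABCB4, ABCB11, ABCG5 and ABCG8, known from liver and intestine, were at background on all arrays, as were ABCC8 and ABCC9, the sulphonylurea receptor subunits of potassium channels.

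The organelle transporters were mostly above background, and none was called with all arrays. Of the mitochondrial and lysosomal B class all 4 measured (ABCB6, ABCB8, ABCB9 and ABCB10) passed the filter, with log2 differences of -0.33 to 0.20 between the sorted populations. Against unsorted cells ABCB9 was at 0.70 ± 0.36 for side population and 0.92 ± 0.36 for non-side population (limma, adjusted p = 0.342 and 0.18). It read 144.4 and 116.2 in unsorted cells, under the filter's intensity of about 148.5. It thus passed the filter only through the sorted arrays, and these differences are a description. Its probe set 207321_s_at, above background on 3 arrays, was at -0.38 and -0.75. ABCD3 and ABCD4, which handles cobalamin in lysosomes, passed the filter with differences of 0.27 and 0.09 between the sorted populations. ABCD2, a peroxisomal transporter, was at background on all arrays.

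Other genes of transporter biology, taken from 6 lists, were read from the same fit. The 3 ABC proteins named otherwise were all above background. They were TAP1 and TAP2, the antigen peptide transporter, and CFTR, the chloride channel, with differences between the sorted populations of 0.41 ± 0.25, -0.14 ± 0.21 and 0.44 ± 0.50. By limma 0 of these 3 genes, 0 of 10 tested regulators of ABC genes, 0 of 10 glutathione genes, 0 of 5 partners of the D class, 0 of 7 mitochondrial iron-sulfur and haem genes and 0 of 9 translation partners were called in any of the 3 comparisons. Their medians between side and non-side population were 0.41, 0.19, -0.07, -0.25, -0.07 and -0.03. Among regulators, 8 of 10 were positive there, and NFE2L2, which drives antioxidant and C-class transporter genes, was at 0.19 ± 0.36.

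Among marker genes, CEACAM5 differed from unsorted cells by 2.44 for side population and 2.60 for non-side population (limma, adjusted p = 0.00754 and 0.00304). For MET the values were 1.28 and 0.90 (limma, adjusted p = 0.065 and 0.165) and for CEACAM6 -0.45 and -0.45 (limma, adjusted p = 0.261 and 0.228), so of these 3 genes linked to MKN 45 only CEACAM5 passed. Of 8 epithelial markers tested TFF1 was called higher and GATA6 lower in both comparisons with unsorted cells. No marker was called between the sorted populations. Whether these go with the transporter differences from unsorted cells was not tested.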

How the data were processed

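Biotin-labelled total RNA of 10 samples was measured on single-colour arrays. The deposited values are linear intensities, which the authors had already scaled: the mean without the outer 2% at each end was 500.065 to 500.095 on every array. The submitters' processing notes name GCOS 1.4, and which algorithm it ran is not given there. The number of arrays limits the precision.

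Before log2 a constant of 6.1 (10th percentile of the intensities) was added, which understates the differences of low genes. Genes were named through the platform annotation. With limma 3.58.1 in R 4.3.3, 9888 genes at or above the median log2 mean were fitted in 3 groups on all 10 arrays (lmFit, eBayes with a trend, no covariate), with Benjamini-Hochberg adjustment over all of them and calls at 0.05. Genes below the filter come from a fit without it. Differences within letter pairs come from a fit with each pair of each sorted population as its own group. Its spread was shared over all arrays. Where leaving out an array left a lone one in a pair, that array was taken to vary like the other groups. The code was tested on simulated data.

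Values by array were given for called ABC genes, the 4 of smallest p in each comparison, 11 efflux and sterol genes set by name and 3 with the widest gap between sorted and unsorted arrays; ABCB6, ABCC11, ABCC12 and ABCE1 were added after their values were seen. Members and lists were chosen with earlier results of these data known. Alternatives changed the constant, filter, normalization, probe set, trend, arrays and blocking.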

Additional observations from a re-analysis of the deposited data

Results flagged for a closer look

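In each sorted population of 4 arrays, the 27 ABC genes that were tested or named were examined for 1 array standing apart from the other 3, which chance gives in about 1 in 20 groups. Of these 54 groups, 5 had such an array. ABCF2 read 1124.3 in non-side population replicate b against 1533.6 to 1619.7 in the other non-side population arrays, and ABCF3 read 325.4 in the same array against 535.2 to 584.4. At background level, ABCB5 read 16.5 in non-side population replicate c against 34 to 38.6, ABCC2 read 37.9 in non-side population replicate a against 2.9 to 5.3, and ABCC12 read 16.5 in side population replicate c against 2.5 to 3.6.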

How the results depend on the processing

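Between side and non-side population, 0 ABC genes were called by limma under every alternative run except within letters a and b, which gave 2. Leaving out each array of letters a and b in turn left 0 to 1 of them. With the letter as a replicate block the count was 0. The titles give the side and non-side population arrays of a letter the same replicate group name. Same-letter deviations correlated at 0.21, 0.50, -0.113 and 0.364 for letters a to d, and not every array was closest to its own letter. Side population replicate c was closest to non-side population replicate d (0.257), and d to c (0.431). The letters were therefore not taken to pair the samples. SEs and intervals between the sorted populations thus come from unpaired fits.

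Against unsorted cells the count of 0 moved more. For side population it was 1 (ABCF2, higher, through 207623_at) with every probe set on its own (2.1% of all called), 2 (ABCC3 higher, ABCF2 lower) with only the 2 groups compared (4.56%), 4 with the replicate block over letters a and b only (25.1%), 1 with letters a and b (13.9%), 3 with letters c and d (8.56%), and 0 to 1 leaving out an array (ABCF2 without non-side population replicate b or c, with 3.98% and 3.64% of all genes called). For non-side population it was 3 with every probe set on its own (3.58%), 7 with the replicate block (36.7%), 6 with letters a and b (22.3%), 4 with letters c and d (11.9%), and 0 to 1 leaving out an array (ABCC3 without non-side population replicate b, with 3.83% called, and ABCF2 without c, with 6.69%). The cause was not tested. ABCF2, with 209247_s_at, stayed negative in all 23 alternatives for each population. Of the 19 ABC genes above the filter, 8 remained with the filter at the 75th percentile. Of the fold changes recomputed per gene, 27 values passed the threshold that had not, against 1010 that still did not. The 27 hold the same gene more than once: ABCF2 gave 6 for side population and 4 for non-side population against unsorted cells.

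With 2 unsorted arrays, and transporters at background where an order of values was not taken as a result, small differences were not detectable.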
